A study of Mus musculus with 27 samples.

Results

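The ovaries of 4 aged and 5 young untreated mice were compared within experiment 1, the earlier-numbered of the 2 experiments of a mouse study on thioredoxin reductase 1 (TXNRD1), the innate immune response of senescent cells and age-associated inflammation. The 9 libraries were taken by their labels out of 27. The young group is labelled as young and untreated, and the aged group as aged and untreated, with the treatment given as control in both. The labels name the tissue as ovary and the RNA as polyA RNA, and give no strain, genotype, age, cycle stage or housing. A TRi-1 arm of experiment 1, 4 aged animals that received this TXNRD1 inhibitor, entered the fit as a group of its own, so that its libraries bear on the filter, the scaling and the estimate of the spread. Experiment 2 had 5 untreated animals of each age and a further 4 aged animals treated with Auranofin, a gold drug that blocks thioredoxin reductases. The labels number the replicates but say nothing of litters or batches, so p-values measure the spread between these libraries.

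The ovary holds a finite store of oocytes in follicles, each enclosed by granulosa cells that make oestrogen and inhibin, within a stroma of fibroblasts, vessels and resident macrophages. The store runs down over reproductive life, and ageing mouse ovaries are known to gather lymphocytes and large, lipid- and pigment-filled macrophages. Lymphocytes that gather in a tissue outside lymph nodes can form lymphoid aggregates, which recruit more cells through chemokines and specialised venules.

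Library totals were 6460903 to 10077161 counts in young and 9791693 to 14814381 counts in aged ovaries, so the aged group was sequenced more deeply. Levels are given in CPM, counts scaled to a fixed total after TMM normalisation of the library sizes, in the order of the replicate numbers. A change is the log2 fold change, aged minus young, ± its standard error, with edgeR's p adjusted over all genes tested. Of 16028 genes tested, 2958 were higher in aged ovaries (18.5%) and 2632 lower (16.4%), 34.9% in all, and the median change of all genes tested was 0.02. By at least 4-fold, 752 genes were higher and 794 lower. The first principal component held 50.3% of the variance and separated the groups. Along the second, with 14.1%, young replicate 3 and aged replicate 1 stood apart from the other 7 libraries. The groups did not overlap for 27.4% of the genes tested. In bulk tissue fewer cells of a type and less RNA per cell cannot be told apart.

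Markers of the labelled tissue were present but uneven. Steroid-making cells were seen in all 9 libraries: Star, which carries cholesterol into mitochondria, stood at 412, 215, 139.9, 106 and 266 CPM in young and 143, 181, 538 and 78.8 CPM in aged ovaries. The groups overlapped for it, and its value was 0.05 ± 0.45 (adjusted p = 0.95). Foxl2, the transcription factor that keeps granulosa cell identity, stood at 21.3, 15.7, 8.81, 10.3 and 17.2 CPM in young and 3.99, 5.18, 2.37 and 6.46 CPM in aged ovaries, and fell by 1.70 (adjusted p = 0.0011) with no overlap. Among defining granulosa cell markers, Amh had 1 count in all young and 0 in all aged libraries, and Fshr had 11 and 0. Amh and Fshr were thus close to absent in the young group too, unlike Foxl2 and unlike Inha, which is described further on.

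**Figure D1:**
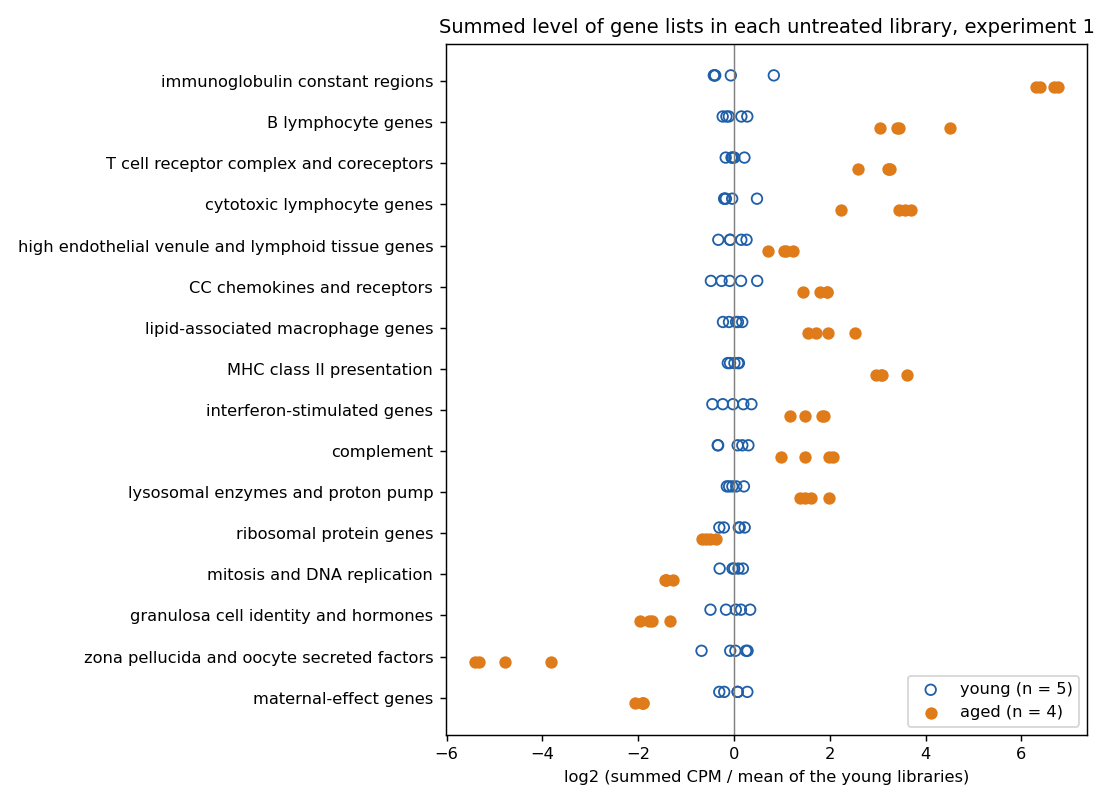
Summed CPM of the members of 16 gene lists in each untreated library of experiment 1, as log2 of the ratio to the mean of the young libraries (horizontal axis). Each row is a list, each open blue circle 1 of 5 young libraries and each filled orange circle 1 of 4 aged libraries. Oocyte lists lie to the left of 0 in aged ovaries and immune lists to the right. Cd74, also a member of the class II list, makes up most of the B lymphocyte sum.

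Immunoglobulin genes and other genes of antibody-secreting cells rose. Igkc, the constant region of the kappa light chain (ENSMUSG00000076609, chromosome 6, 70726435 to 70726966), stood at 60.7, 43.2, 78.3, 44.9 and 33.3 CPM in young and 9954, 7021, 8035 and 9019 CPM in aged ovaries. Jchain, which joins IgA and IgM chains into polymers, stood at 6.75, 11.4, 19.4, 7.67 and 10.6 CPM in young and 486, 535, 447 and 571 CPM in aged ovaries. Its change was 5.52 ± 0.36 (adjusted p = 2.9e-07). Mzb1, a chaperone for immunoglobulin in the endoplasmic reticulum, stood at 0.716, 0.139, 0, 1.28 and 1.05 CPM in young and 137, 50.6, 68.7 and 58.8 CPM in aged ovaries, a change of 6.81 ± 0.50. All 4 aged libraries lay far above the young for each of these genes. Pou2af1, a coactivator of immunoglobulin transcription, rose by 5.66 ± 0.52 and Slamf7, a surface receptor of plasma cells, by 2.53 ± 0.39. Of the 11 immunoglobulin constant region genes tested, 10 rose, 0 fell and 1, Igha, did not pass (1.40 ± 0.69, adjusted p = 0.13). The median of the list was 4.89, and 18.5% of all genes tested were higher. Igha levels of 164, 37.2, 20.5 and 235 CPM in aged ovaries overlapped the young range of 11.8 to 112 CPM. Reads of near-identical constant regions can count for either gene. Immunoglobulin genes made up 1.06 ± 0.129% of all counts in the aged group and 0.0118 ± 0.0048% in the young group (exact permutation p = 0.0079, two-sided, the smallest that 4 against 5 libraries allow). Of 19 plasma cell genes tested, 12 rose and 2 fell, with a median of 0.99. The 2 that fell were Derl3 (-1.44 ± 0.35) and Fkbp11 (-1.07 ± 0.36), which serve protein degradation and folding in the endoplasmic reticulum. Igha passed without young replicate 3 (adjusted p = 0.026). Fkbp11 lost its call without young replicate 3 or 4, or aged replicate 1, 2 or 3 (adjusted p = 0.055 to 0.087). Slamf7 changed by 3.15 without young replicate 3.

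B lymphocyte genes rose with them: of 20 tested, 16 rose and 0 fell, with a median change of 3.27 against 0.02 over all genes. Cd74, a member that is also in the class II list, made up most of the summed level of this list. Its group mean was 2474 of 2769 CPM in aged and 159 of 210 CPM in young ovaries. Cd79a, the signalling chain of the B cell receptor, stood at 0.819, 0.418, 0.518, 0.533 and 0.263 CPM in young and 21.4, 13.9, 3.64 and 14.2 CPM in aged ovaries. Aged replicate 3 held the least of the aged group, yet lay above all young libraries. Its change was 4.64 ± 0.52 (adjusted p = 1.2e-05), while Cd22, an inhibitory receptor of mature B cells, rose by 5.72 ± 0.54 and the lineage factor Spib by 5.09 ± 0.54. In experiment 2, whose libraries are all separate, 13 of 20 members rose, against 5.86% of all genes tested there, and the median was 3.05. Cd22 changed by 6.51 without young replicate 3.

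T cell genes rose too. Of 23 members of the T cell receptor complex and coreceptors tested, 21 rose, 1 fell and 1 did not pass, with a median of 3.16. Cd3d, a subunit of the receptor complex, stood at 7.06, 4.73, 6.39, 5.12 and 4.21 CPM in young and 86.6, 74.5, 23.9 and 46.7 CPM in aged ovaries. It rose by 3.39 ± 0.35, with the lowest aged level in replicate 3 and no overlap. The coreceptor of cytotoxic T cells, Cd8a, stood at 0.307, 0.696, 0, 0.426 and 0.92 CPM in young and 16.7, 17.5, 5.75 and 15.7 CPM in aged ovaries, a change of 4.83 ± 0.50. Trac, the constant region of the receptor alpha chain, rose by 4.61 ± 0.48 and Thy1, which fibroblasts and lymphatic vessels also carry, by 2.42 ± 0.27. The member that fell was Lef1 (-3.19 ± 0.86), a transcription factor of naive T cells that other developing tissues also use, at 2.46 ± 0.672 CPM in young and 0.254 ± 0.311 CPM in aged ovaries. Lef1 changed by -4.47 without aged replicate 4.

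Among cytotoxic lymphocyte genes, 13 of 18 tested rose and 0 fell. Gzmk, a granzyme of memory CD8 T cells, stood at 0.102, 0, 0, 0 and 0 CPM in young and 3.55, 5.37, 1.35 and 6.54 CPM in aged ovaries, with a single count in the young group. It was higher in aged ovaries by a ratio of 169 (95% counting interval 30.1 to 6729.7). Nkg7, a granule membrane protein, rose by 4.24 ± 0.46 and Cst7, which inhibits granule proteases, by 3.33 ± 0.53. Ccl5, a chemokine of activated T cells, stood at 6.24, 2.37, 3.97, 5.01 and 3.68 CPM in young and 148, 87.1, 41.2 and 108 CPM in aged ovaries and rose by 4.48 ± 0.41. The checkpoint and regulatory list had 8 rises among 16 tested. Foxp3, the regulator of regulatory T cells, had 0 counts in all 5 young libraries and 2.44, 0.753, 0.677 and 2.88 CPM in aged ones, at least 22.4-fold higher against a floor of 3 counts over the group. Tnfrsf18, a costimulatory receptor that these cells carry, rose by 2.99 ± 0.38 and Icos by 3.22 ± 0.55. In experiment 2, 5 of 16 cytotoxic genes rose, against 5.86% of all genes tested there.

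Genes of lymphoid aggregates and of the high endothelial venules through which lymphocytes leave the blood were higher in aged ovaries: 12 of 17 tested rose and 0 fell, with a median of 1.76. Cxcl13, the chemokine that draws B cells into follicles (ENSMUSG00000023078, chromosome 5, 95956951 to 95961068), stood at 2.66, 2.09, 1.38, 2.56 and 0.789 CPM in young and 46.9, 29.4, 19.8 and 32.6 CPM in aged ovaries. Ccl19, which draws naive T cells and dendritic cells, stood at 0, 0, 0, 0.746 and 1.05 CPM in young and 41.9, 36.1, 11.3 and 49.5 CPM in aged ovaries, and rose by 6.49 ± 0.80. Glycam1, a secreted mucin of high endothelial venules, had 0 counts in all young libraries and 157, 115, 5.67 and 128 CPM in aged ones. Aged replicate 3 was the lowest of its group for all 3 genes, by the most for Glycam1, and still lay above every young library. Ltb, the lymphotoxin subunit that organises lymphoid stroma, rose by 4.27 ± 0.59 and Cxcr5, the receptor for Cxcl13, by 4.75 ± 0.69. Chst4, a sulphotransferase of these venules that is also made elsewhere, did not pass (0.03 ± 0.40, adjusted p = 0.96). Ccl19 changed by 7.26 and Cxcr5 changed by 5.52 without young replicate 5.

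**Figure D2:**
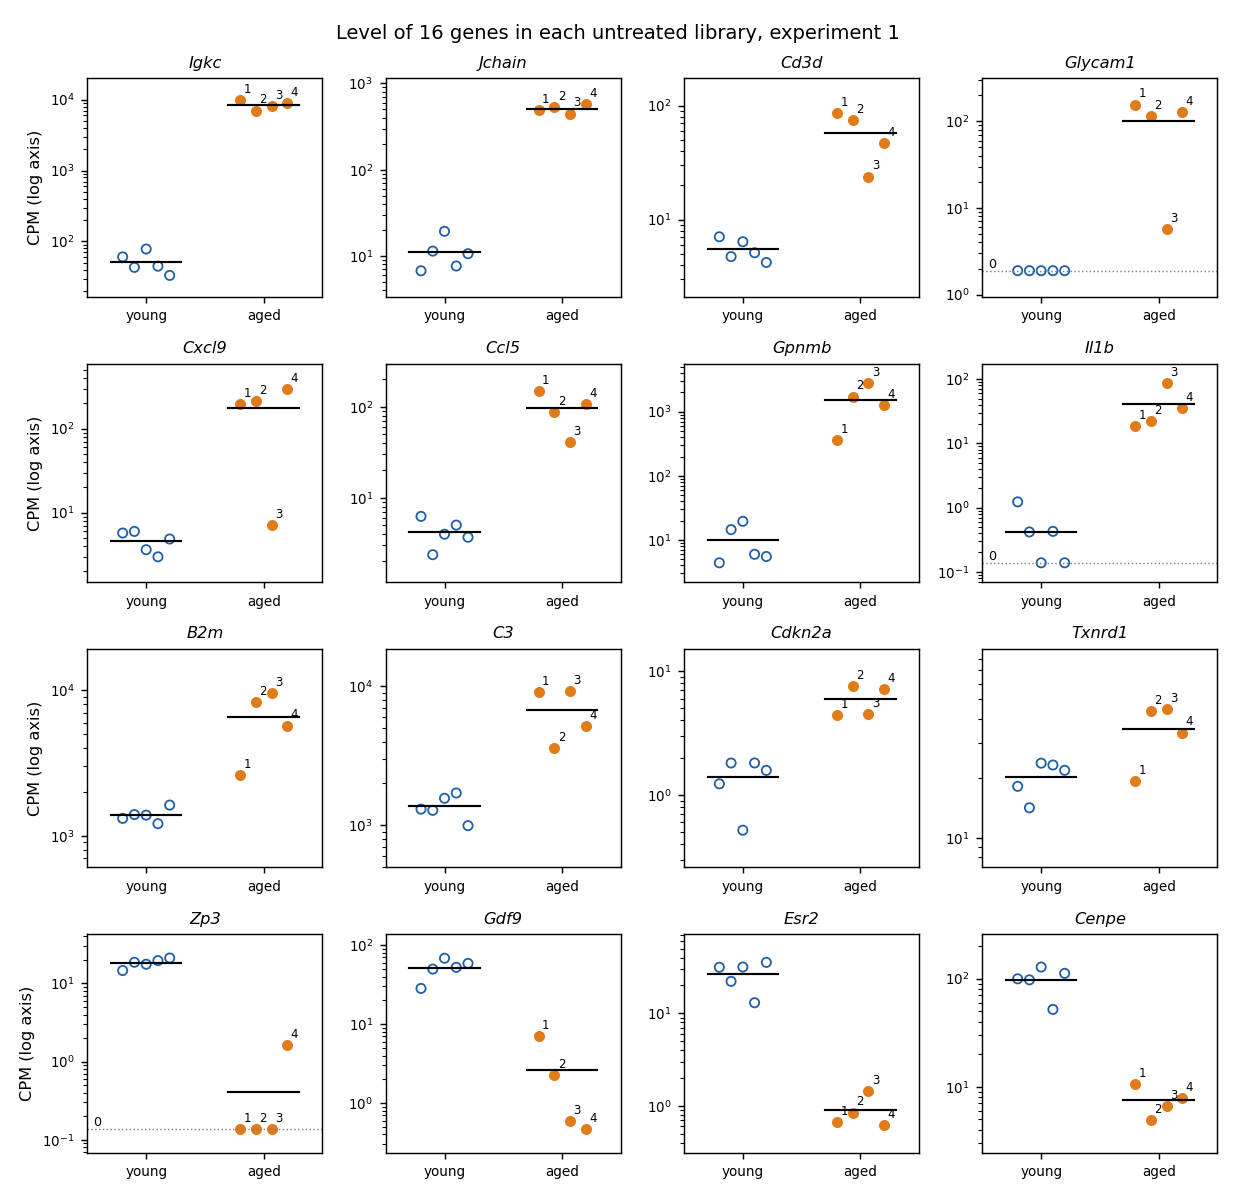
Level of 16 genes in each untreated library of experiment 1 (CPM, log axis; libraries without a count are drawn on the dotted line marked 0). Open blue circles are the 5 young and filled orange circles the 4 aged libraries, the number beside an aged point is its replicate number, and bars are group means. Aged replicate 3 is lowest of its group for Glycam1 and Cxcl9 and highest for Il1b and Gpnmb.

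Macrophage genes rose too, and for several of them aged replicate 3 was the highest of its group. Gpnmb, a glycoprotein of macrophages that digest lipid (ENSMUSG00000029816, chromosome 6, 49036546 to 49070929), stood at 4.40, 14.5, 19.5, 5.97 and 5.52 CPM in young and 364, 1714, 2793 and 1279 CPM in aged ovaries. Aged replicate 3 was the highest and replicate 1 the lowest. Itgax, the integrin CD11c, stood at 1.94, 3.34, 0.518, 3.62 and 1.45 CPM in young and 34.7, 46.97, 106 and 40.8 CPM in aged ovaries and rose by 4.68 ± 0.43. Trem2, the lipid-sensing receptor of such macrophages, stood at 13.9, 27.7, 24.5, 15.2 and 6.97 CPM in young and 99.8, 94.7, 130.2 and 66.4 CPM in aged ovaries, a change of 2.47 ± 0.34 (adjusted p = 5.6e-05). Apoe, which carries lipid out of cells, rose by 2.79 ± 0.24, and Lyz2, the lysozyme of macrophages and neutrophils, by 3.11 ± 0.33. Of the lipid-associated macrophage list, 21 of 25 tested rose, 1 fell and 3 did not pass, with a median of 2.08. The fall was that of Soat1 (-0.72 ± 0.23), which esterifies cholesterol and is also abundant in steroid-making cells. For resident macrophage genes, 18 of 23 rose and 0 fell. C1qa, a subunit of the first complement component, stood at 75.5, 79.5, 136, 62.7 and 57.2 CPM in young and 1986, 562, 937 and 1009 CPM in aged ovaries, and its highest aged level was that of replicate 1. Cd68 rose by 3.31 ± 0.33 and the Fc receptor Fcgr3 by 2.38 ± 0.24. In experiment 2, 15 of 25 lipid-associated and 15 of 23 resident macrophage genes rose, against 5.86% of all genes tested there. Soat1 lost its call without aged replicate 4 (adjusted p = 0.072). The list of lipid-associated macrophage genes had a number of falls of 2 without young replicate 1, or aged replicate 3.

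Lysosomal genes rose together: 24 of 35 tested rose, 0 fell, and the median was 1.05. Psap, which yields the activators of sphingolipid breakdown, stood at 451, 368, 436, 384 and 397 CPM in young and 1839, 1835, 2719 and 1496 CPM in aged ovaries, and rose by 2.28 ± 0.19 (adjusted p = 1.9e-06). The groups lay far apart. Ctsd, the main aspartic protease of lysosomes, rose by 2.51 ± 0.24, Ctss, which trims the class II invariant chain, by 3.60 ± 0.35 and the membrane protein Lamp1 by 1.55 ± 0.16.

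Neutrophil genes were also higher. Of 20 neutrophil genes only 13 had the counts to be tested, of which 11 rose and 0 fell. The filter on counts can keep a scarce gene through the aged libraries alone, here and in the other immune lists. Their tested members thus lean to genes that aged ovaries express. Without any young count were 2 tested members of the checkpoint list, 2 of the venule list, 2 of the CXC list and 1 of the interleukin 1 list. S100a8, a subunit of calprotectin, stood at 45.6, 15.3, 7.95, 38.3 and 2.76 CPM in young and 600.1, 343, 1119 and 624 CPM in aged ovaries. Young libraries spread widely, and none reached the lowest aged one. Clec4d, a lectin receptor of neutrophils and macrophages, rose by 4.30 ± 0.44. Granule genes were scarce, and Ly6g had 11 counts in young and 26 in aged libraries. Of 12 mast cell genes tested, 4 rose and 0 fell. This share of calls, 33.3%, was near the 34.9% of all genes tested. The 4 were the tryptase Tpsb2 (3.20 ± 0.32), the chymases Mcpt4 (3.81 ± 0.42) and Cma1 (2.08 ± 0.29), and the carboxypeptidase Cpa3 (1.66 ± 0.41). Tpsb2 stood at 9.83, 9.61, 16.2, 8.10 and 5.39 CPM in young and 126, 54.9, 82.4 and 95.5 CPM in aged ovaries, without overlap. In experiment 2, 3 of 12 mast cell genes rose and 1 fell, against 5.86% and 4.59% of all genes tested there. Among dendritic cell genes, 11 of 15 rose, among them Irf8 (1.78 ± 0.23), which B cells and macrophages share, the lectin Clec10a (1.99 ± 0.27) and Zbtb46 (0.93 ± 0.18), and 1, Tcf4, fell (-0.57 ± 0.19). Tcf4 lost its call without young replicate 2 or 5, or aged replicate 1 or 3 (adjusted p = 0.051 to 0.069).

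Antigen presentation rose in full for class II. All 13 of the class II genes tested rose, with a median of 2.94. H2-Ab1, the beta chain of I-A, stood at 122, 113, 109, 109 and 104 CPM in young and 1067, 680.5, 719 and 950.1 CPM in aged ovaries. The young libraries lay within a narrow band, and the change was 2.94 ± 0.25 (adjusted p = 1.9e-06). Cd74, the invariant chain, stood at 151, 131, 198, 143 and 173 CPM in young and 4354, 1452, 2032 and 2057 CPM in aged ovaries and rose by 3.96 ± 0.34, while H2-DMa, which loads peptides, rose by 3.15 ± 0.24. For class I and the immunoproteasome, 12 of 19 rose and 0 fell. B2m, the light chain of class I molecules (ENSMUSG00000060802, chromosome 2, 122147686 to 122153083), stood at 1318, 1399, 1387, 1211 and 1626 CPM in young and 2622, 8346, 9601 and 5724 CPM in aged ovaries, lowest among aged ovaries in replicate 1, without overlap. Tap1, which pumps peptides into the endoplasmic reticulum, stood at 15.2, 10.9, 13.1, 7.14 and 8.41 CPM in young and 114, 78.9, 73.01 and 112 CPM in aged ovaries, a change of 3.11 ± 0.27. H2-K1 rose by 2.16 ± 0.25, H2-D1 by 2.15 ± 0.26 and H2-Q7 by 3.59 ± 0.34, with the reservation that near-identical class I genes can share reads.

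Interferon-stimulated genes followed the same direction. Of 39 tested, 31 rose, 0 fell and 8 did not pass, with a median of 1.63. Ifi47, a GTPase induced by interferon gamma, stood at 19.8, 19.6, 21.4, 26.9 and 17.9 CPM in young and 155, 186, 67.3 and 218 CPM in aged ovaries. Irf1, a transcription factor that interferon gamma induces, stood at 42.9, 32.3, 22.8, 47.4 and 32.99 CPM in young and 112, 178, 104 and 197 CPM in aged ovaries and rose by 2.05 ± 0.29. For both genes aged replicate 3 was the lowest of its group, above all young libraries. Irf9, the DNA-binding part of the factor that type I interferon activates, stood at 36.6, 24.5, 30.6, 39.9 and 26.6 CPM in young and 122, 89.5, 92.6 and 113 CPM in aged ovaries with little spread, and rose by 1.72 ± 0.20 (adjusted p = 1.3e-05). Ifitm3, which blocks viral entry, rose by 1.86 ± 0.26. Cxcl9, a chemokine induced by interferon gamma, stood at 5.73, 5.99, 3.63, 2.98 and 4.86 CPM in young and 196, 213, 7.11 and 296 CPM in aged ovaries, so that aged replicate 3 lay just above the young range and far below the other aged libraries. Its change was 5.26 ± 0.82 (adjusted p = 0.00015), and 5.61 without aged replicate 3. Ifng, the gene of interferon gamma itself, stood at 2.22, 2.92, 0 and 4.52 CPM in aged ovaries and had 1 count in the young group, a ratio of 97.8 (95% counting interval 17.2 to 3896). In experiment 2, 6 of 39 interferon-stimulated genes rose, against 5.86% of all genes tested there, and the median was 0.48.

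Cxcl10 and B2m, 2 genes of the CXC chemokine and class I lists, are shown with the 250 bases before their start sites (RefSeq, GRCm38.p6), because both windows hold the letters of an interferon response element and of a kB site, the sequence NF-kB binds. Zp3, an oocyte gene described further on, is shown for contrast with an E box, a motif of basic helix-loop-helix factors. Capitals mark GAAANNGAA and GGGANTTCC in Cxcl10 (minus strand, chr5:92348890-92349139), at positions -213 and -103 from the start, GAAANNGAA and GGGANTTTC in B2m (plus strand, chr2:122147437-122147686), at -139 and, on the other strand, -125, and CACGTG in Zp3 (plus strand, chr5:135979855-135980104), at -181. Matches to other searched patterns are left in lower case, 1 of GGAANTTCC in Cxcl10 and 2 of CANNTG outside the capitals in Zp3 among them. These genes and motifs were picked after looking at the windows.
Cxcl10: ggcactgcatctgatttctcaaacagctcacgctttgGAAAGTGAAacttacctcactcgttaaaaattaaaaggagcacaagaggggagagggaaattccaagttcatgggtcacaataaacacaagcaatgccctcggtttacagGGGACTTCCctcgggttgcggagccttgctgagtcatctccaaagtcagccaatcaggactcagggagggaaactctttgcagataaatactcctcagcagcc
B2m: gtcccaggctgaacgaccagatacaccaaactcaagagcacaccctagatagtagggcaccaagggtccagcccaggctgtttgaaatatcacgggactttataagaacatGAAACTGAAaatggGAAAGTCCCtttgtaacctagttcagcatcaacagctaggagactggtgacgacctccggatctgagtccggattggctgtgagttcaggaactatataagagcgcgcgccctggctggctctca
Zp3: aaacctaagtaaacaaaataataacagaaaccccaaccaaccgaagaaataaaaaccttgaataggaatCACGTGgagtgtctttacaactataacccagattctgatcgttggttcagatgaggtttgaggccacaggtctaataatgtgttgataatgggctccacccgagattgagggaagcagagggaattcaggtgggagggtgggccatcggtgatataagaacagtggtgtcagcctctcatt
Windows were listed for 29 interferon-stimulated genes, and 17 of their 34 windows (50%) held GAAANNGAA, against 2342 of all 32851 windows (7.13%). Of 23 windows of NF-kB list genes, 5 (21.7%) held GGGANTTCC, against 1.43% of all. The CXC chemokine and class I lists had less GAAANNGAA than interferon-stimulated genes and less GGGANTTCC than NF-kB list genes. GAAANNGAA was in 21.1% of 19 windows of CXC chemokine list genes and in 21.1% of 19 windows of class I list genes. GGGANTTCC was in 10.5% and 5.26% of them. GGGANTTTC, the form marked in B2m, was in 26.3% of CXC, 5.26% of class I and 17.4% of NF-kB list windows. GGAANTTCC was in 21.1%, 0% and 8.7% of them. CACGTG was found in 1 of 6 windows of the zona and oocyte secreted list, and in 6.02% of all. In all 14 patterns were searched on both strands, after longer forms of 5 of them: GGGANTTTC is in 0.941% of all windows, its forms GGGAATTTC and GGGACTTTC in 0.234% and 0.289%, GGAANTTCC in 0.813%, CANNTG, which includes CACGTG, in 66.2%, TAATTG in 7.17%, TGACNNNGC in 10.2%, TTCNNNGAA in 7.02%, TTTGAA in 16%, TCTTTCC in 7% and CCTTTTCTT in 0.791%. A match is a run of letters and not a shown binding site.

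Cxcl10 itself stood at 2.66, 1.81, 0.518, 2.24 and 2.63 CPM in young and 52.9, 114, 22.2 and 129 CPM in aged ovaries, again lowest among aged ovaries in replicate 3 and without overlap. Of the CXC chemokines and their receptors, 15 of 21 tested rose and 1, the scavenger receptor Ackr3, fell (-0.98 ± 0.29). Cxcl16, which macrophages display, stood at 40.2, 50.3, 75.3, 43.9 and 31.02 CPM in young and 193, 195, 262 and 179 CPM in aged ovaries and rose by 2.11 ± 0.23. The neutrophil chemokine Cxcl2 was seen mainly in aged replicate 3: it stood at 0.554, 2.17, 14.7 and 2.10 CPM in aged ovaries, against 1 count in the young group. For CC chemokines and receptors, 18 of 25 rose and 0 fell, with a median of 3.0002. Ccl8, a monocyte chemokine, stood at 62.1, 57.1, 158, 98.7 and 58.6 CPM in young and 1101, 489.8, 428 and 760.02 CPM in aged ovaries and rose by 3.0002 ± 0.35. Ccl4 rose by 4.97 ± 0.48. Ccl2, which draws monocytes and is counted among secreted factors of senescent cells, stood at 0.716, 0.835, 0.518, 2.03 and 0.263 CPM in young and 5.65, 27.4, 22.9 and 20.3 CPM in aged ovaries, a change of 4.38 ± 0.63 (adjusted p = 8e-05). Ccl2 changed by 4.98 without young replicate 4.

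Sensors and NF-kB genes rose in part. Of 22 nucleic acid sensing genes tested, 12 rose and 3 fell. Tmem173, which encodes the STING adaptor, stood at 19.3, 20.6, 23.3, 18.01 and 16.04 CPM in young and 87.1, 67.9, 71.9 and 91.4 CPM in aged ovaries, and Zbp1, a sensor of left-handed nucleic acid, at 2.46, 2.51, 2.42, 6.18 and 1.31 CPM in young and 20.5, 29.4, 14.4 and 38.4 CPM in aged ovaries. Neither overlapped between groups. The nuclease Samhd1 rose by 1.78 ± 0.24 and the kinase Ikbke by 1.90 ± 0.37. The 3 that fell were the kinase Tbk1 (-0.90 ± 0.28), Ifi205 (-1.35 ± 0.44) and the RNase H2 subunit Rnaseh2b (-1.72 ± 0.42). Without young replicate 3 and aged replicate 1, 12 rose and 1 fell. For NF-kB subunits and feedback inhibitors, 15 of 22 rose and 0 fell. Nfkb2, the p100 precursor of the alternative pathway, stood at 7.06, 10.3, 11.6, 12.7 and 5.52 CPM in young and 83.5, 40.6, 64.2 and 51.8 CPM in aged ovaries and rose by 2.67 ± 0.29 (adjusted p = 8.7e-06). Nfkbiz rose by 2.14 ± 0.28, Bcl3 by 3.27 ± 0.52 and the feedback inhibitor Tnip3 by 3.54 ± 0.54. Ifi205 lost its call without young replicate 4, or aged replicate 1, 3 or 4 (adjusted p = 0.056 to 0.066). Ifi205 changed by -2.09 without aged replicate 2. Bcl3 changed by 2.50 without aged replicate 3.

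Interleukin 1 family genes rose and spread widely among aged ovaries. Il1b, the inflammatory cytokine, stood at 1.23, 0.418, 0, 0.426 and 0 CPM in young and 18.6, 22.2, 86.97 and 35.4 CPM in aged ovaries. Il1rn, its receptor antagonist, stood at 1.13, 0.278, 1.21, 0.426 and 0.789 CPM in young and 11.3, 24.1, 96.02 and 26.01 CPM in aged ovaries. Aged replicate 3 held the highest level of both by a wide margin, and every aged library lay above the young range. The changes were 6.44 ± 0.69 (adjusted p = 8.7e-06) and 5.68 ± 0.59 (adjusted p = 6.9e-06), and 5.71 and 4.69 without that library. Pycard, the inflammasome adaptor, stood at 20.3, 24.1, 36.5, 31.9 and 19.7 CPM in young and 66.5, 59.5, 66.6 and 53.6 CPM in aged ovaries with little spread, a change of 1.22 ± 0.21. In this list 13 of 19 tested rose and 0 fell. Il2rg, the common chain of interleukin receptors on lymphocytes, rose by 3.65 ± 0.36, Il21r by 3.90 ± 0.51, Il10ra by 2.32 ± 0.32 and the tumour necrosis factor receptor Tnfrsf1b by 2.35 ± 0.39. Il6 had 0 counts in young and 9 in aged libraries, too few to test. Il1b changed by 7.36 without young replicate 1. Tnfrsf1b changed by 1.67 without aged replicate 3.

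Of leukocyte adhesion molecules, 12 of 17 rose and 1, Jam2, fell (-0.99 ± 0.33). Icam1, which endothelium shows to leukocytes, stood at 6.86, 6.40, 6.05, 6.82 and 7.76 CPM in young and 53.5, 50.7, 37.6 and 65.04 CPM in aged ovaries, with the young libraries in a narrow band. Selplg, the ligand of P-selectin on leukocytes, rose by 2.85 ± 0.26 and the integrin Itgal by 3.16 ± 0.35. Complement genes had 13 rises among 21 tested and 0 falls. C3, the central component (ENSMUSG00000024164, chromosome 17, 57203970 to 57228136), stood at 1306, 1280.3, 1563, 1707 and 993 CPM in young and 9103, 3590.1, 9269 and 5179 CPM in aged ovaries, and C4b rose by 1.98 ± 0.23. In experiment 2, 12 of 21 complement genes rose, against 5.86% of all genes tested there. Jam2 lost its call without young replicate 4 or 5, or aged replicate 1 or 3 (adjusted p = 0.054 to 0.081).

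Secreted factors of senescent cells overlap these lists. Of 32 tested, 23 rose and 1, Igfbp5, fell, with a median of 2.66. Igfbp5, a binding protein for insulin-like growth factors, stood at 516, 405, 501, 998 and 612 CPM in young and 177, 141, 111 and 182 CPM in aged ovaries, with no overlap. Spp1, osteopontin, which lipid-associated macrophages also make, stood at 2.15, 1.53, 3.28, 0.746 and 1.18 CPM in young and 20.1, 38.7, 105 and 36.5 CPM in aged ovaries. Gdf15, a cytokine of stressed cells, stood at 0.716, 1.11, 3.63, 1.49 and 0.263 CPM in young and 14.7, 14.8, 22.6 and 13.6 CPM in aged ovaries and rose by 3.56 ± 0.49 (adjusted p = 6.1e-05). Cdkn2a, whose products p16 and ARF mark senescence, stood at 1.23, 1.81, 0.518, 1.81 and 1.58 CPM in young and 4.43, 7.53, 4.48 and 7.17 CPM in aged ovaries, without overlap, and rose by 2.06 ± 0.36. Cdkn1a, the p21 inhibitor, stood at 14.9, 13.8, 26.95, 24.1 and 13.9 CPM in young and 59.1, 31.9, 39.8 and 37.4 CPM in aged ovaries and rose by 1.17 ± 0.24. The wider list of cell cycle arrest and p53 targets went up in part, with 9 rises and 1 fall among 26 tested. This was 38.5% called, against 34.9% of all genes tested. Phlda3, a p53 target, rose by 1.88 ± 0.25, and Hmgb2, a chromatin protein of dividing cells, fell by 1.88 (adjusted p = 8e-05). Gdf15 changed by 4.16 without young replicate 3.

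Oocyte genes were nearly lost from aged ovaries, and their lists had the lowest medians of the 68 lists. Genes lower in aged ovaries make up 16.4% of all genes tested. All 9 tested members of the zona pellucida and oocyte secreted list fell, all 8 tested oocyte Nlrp genes fell, and of 18 maternal-effect genes tested 16 fell and 1 rose. The medians were -5.33, -7.33 and -6.54, or -5.09, -6.39 and -6.05 with members absent from aged ovaries set at their bound. A filter on counts keeps mainly members that the young ovary expresses, so the tested members are not all members: 1 of 10, 4 of 12 and 2 of 20 were not tested. The maternal-effect member that rose, Trim28 (0.45 ± 0.15), is a corepressor that most cells express. Trim28 lost its call without young replicate 1 or 2, or aged replicate 1 or 3, or TRi-1 replicate 1 (adjusted p = 0.051 to 0.071).

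Zp3, a sperm-binding coat protein of the oocyte, stood at 14.6, 18.7, 17.6, 19.6 and 21.2 CPM in young and 0, 0, 0 and 1.64 CPM in aged ovaries. Aged replicate 4 was the only aged library with counts of it. Zp2, another coat protein, stood at 7.68, 11.6, 8.64, 16.6 and 19.6 CPM in young ovaries and had 0 counts in all 4 aged ones, at least 191-fold lower. Gdf9, which the oocyte sends to granulosa cells, stood at 28.3, 49.8, 68.4, 52.4 and 58.9 CPM in young and 7.09, 2.26, 0.592 and 0.467 CPM in aged ovaries, falling by 4.35 (adjusted p = 0.00019), and aged replicate 1 held more than all other aged libraries together. Bmp15, its partner, stood at 12.4, 15.6, 11.2, 24.1 and 13.01 CPM in young ovaries and had 1 count in aged ovaries, a ratio of 695 (95% counting interval 124 to 27482). Dppa3, which protects maternal methylation in the egg, stood at 23.7, 42.3, 20.9, 52.7 and 28.7 CPM in young and 0.665, 1.88, 1.35 and 0.623 CPM in aged ovaries, so each aged ovary kept some of it. Padi6, a part of the cytoplasmic lattices of the egg, stood at 22.004, 26.03, 23.2, 26.8 and 24.97 CPM in young and 0, 0.471, 0 and 0.156 CPM in aged ovaries. Nlrp14 stood at 28.6, 39.95, 48.4, 46.8 and 48.6 CPM in young and 0, 0, 0 and 0.857 CPM in aged ovaries, again with aged counts in replicate 4 alone. Nlrp4f had 0 counts in aged ovaries and was at least 184-fold lower, while near-identical Nlrp4 genes can share reads. Gdf9 changed by -5.56 without aged replicate 1.

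Germ cell regulators were scarce: only 10 of 20 were tested, of which 7 fell and 1 rose. Nobox, a transcription factor of early follicles, stood at 2.87, 4.04, 3.46, 3.62 and 6.70 CPM in young ovaries and had 0 counts in aged ones, at least 60.2-fold lower. Figla, which activates zona genes, had 43 counts in young and 0 in aged libraries and was below the filter. Dazl, an RNA-binding protein of germ cells, stood at 5.83, 6.68, 7.43, 13.1 and 9.07 CPM in young and 0.222, 0, 0 and 0.389 CPM in aged ovaries. Tex14, which keeps bridges between germ cells, stood at 16.8, 37.2, 29.03, 36.98 and 49.03 CPM in young and 1.22, 0.377, 4.15 and 1.01 CPM in aged ovaries, and fell by 4.30 (adjusted p = 3.7e-05). The member that rose, the meiotic cohesin Rec8, stood at 3.38, 1.11, 4.49, 0.959 and 3.02 CPM in young and 10.9, 9.79, 7.11 and 3.12 CPM in aged ovaries, a change of 1.58 ± 0.49 (adjusted p = 0.019). Falls with some of the smallest p outside these lists were near 0 in aged ovaries: Elobl, an elongin B-like gene, stood at 32.4, 43.99, 29.2, 67.7 and 66.6 CPM in young and 0, 0.0941, 0.677 and 0.0779 CPM in aged ovaries, and Wfdc10, a protease-inhibitor-like gene, at 46.1, 79.8, 75.5, 62.2 and 70.5 CPM in young and 0.111, 1.51, 1.18 and 0.779 CPM in aged ovaries. Rec8 lost its call without aged replicate 1 (adjusted p = 0.057). Tex14 changed by -5.32 without aged replicate 3.

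In experiment 2, 5 of 6 zona and oocyte secreted genes, 6 of 6 oocyte Nlrp genes and 9 of 16 maternal-effect genes fell, against 4.59% of all genes tested there.

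Granulosa cell genes fell in part. Of 20 tested, 12 fell, 1 rose and 7 did not pass, with a median of -2.20. Esr2, oestrogen receptor beta, stood at 31.4, 22.1, 31.6, 13.003 and 35.5 CPM in young and 0.665, 0.847, 1.44 and 0.623 CPM in aged ovaries. Slc18a2, a monoamine transporter placed in this list, stood at 19.5, 24.9, 27.6, 23.8 and 31.8 CPM in young and 1.77, 1.69, 2.20 and 0.701 CPM in aged ovaries, a change of -4.001 ± 0.45 (adjusted p = 1.2e-05). Bmpr1b, the receptor for oocyte BMP15, stood at 61.9, 63.9, 42.7, 50.6 and 58.8 CPM in young and 7.54, 7.53, 4.91 and 7.71 CPM in aged ovaries, and Gja1, the gap junction protein connexin 43, at 605, 439, 285, 313 and 513 CPM in young and 67.1, 139.5, 97.97 and 74.2 CPM in aged ovaries. None of these 4 overlapped between groups. Inha, the inhibin alpha subunit, stood at 467, 300.3, 332, 147 and 288 CPM in young and 97.9, 23.8, 13.2 and 28.7 CPM in aged ovaries, with aged replicate 1 above the other aged libraries, and fell by 2.91 (adjusted p = 0.0022). Cyp19a1, the aromatase that makes oestrogen, stood at 1.84, 14.3, 12.1, 4.90 and 2.10 CPM in young and 0.887, 1.88, 1.61 and 1.56 CPM in aged ovaries, and its groups overlapped (-2.22 ± 1.34, adjusted p = 0.21). The member that rose was Wt1 (0.47 ± 0.16), which the ovarian surface epithelium and stroma also express. In experiment 2, 3 of 20 granulosa genes fell, against 4.59% of all genes tested there. Cyp19a1 passed without TRi-1 replicate 4 (adjusted p = 0.034). Wt1 lost its call without young replicate 2 or 5, or aged replicate 3 or 4, or TRi-1 replicate 1 (adjusted p = 0.052 to 0.071). Inha changed by -3.80 without aged replicate 1. For granulosa cell identity and hormones the number of rises was 2 without aged replicate 1.

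Steroid synthesis was not uniformly lower: of 18 genes tested 4 fell, 3 rose and 11 did not pass. This share of calls, 38.9%, was near the 34.9% of all genes tested. Nr5a2, a nuclear receptor that drives granulosa and luteal steroid genes, stood at 233, 140.04, 142, 95.2 and 257 CPM in young and 3.66, 3.01, 13.03 and 2.96 CPM in aged ovaries, falling by 4.93 (adjusted p = 0.0017). Aged replicate 3 was the highest of the aged. Hsd3b1, which makes progesterone from pregnenolone, stood at 1574, 1445, 636, 696 and 1808 CPM in young and 173, 507, 469 and 82.9 CPM in aged ovaries, and fell by 2.0003 (adjusted p = 0.0037). Cyp11a1, which cleaves the cholesterol side chain, overlapped between groups (-0.48 ± 0.55, adjusted p = 0.54). The rises included Hsd11b1 (1.30 ± 0.35) and Por (0.74 ± 0.23). Without aged replicate 3, 0 rose and 6 fell. Rgs2, a regulator of G protein signalling that responds to the ovulatory hormone surge, stood at 1225, 1902, 2178, 1503 and 1718 CPM in young and 156, 361, 206 and 313 CPM in aged ovaries and fell by 2.72 (adjusted p = 4.2e-06). Of 11 ovulation and cumulus genes tested 1 fell and 2 rose. Of 13 luteal genes tested, 2 fell and 0 rose. Calls made up 27.3% of the ovulation list and 15.4% of the luteal list, against 34.9% of all genes tested. Hsd11b1 lost its call without aged replicate 3 (adjusted p = 0.059). Por lost its call without young replicate 1, or aged replicate 3 (adjusted p = 0.053 to 0.14). Nr5a2 changed by -5.81 without aged replicate 3. Falls in the list of ovulation and cumulus expansion numbered 2 without aged replicate 3. Counts of rises among ovulation and cumulus expansion were 1 without young replicate 1, 2, 3 or 5, or aged replicate 2 or 4. The list of luteal cell and luteolysis genes had a number of falls of 1 without young replicate 1, 2, 3 or 5, or aged replicate 1 or 4.

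**Figure D3:**
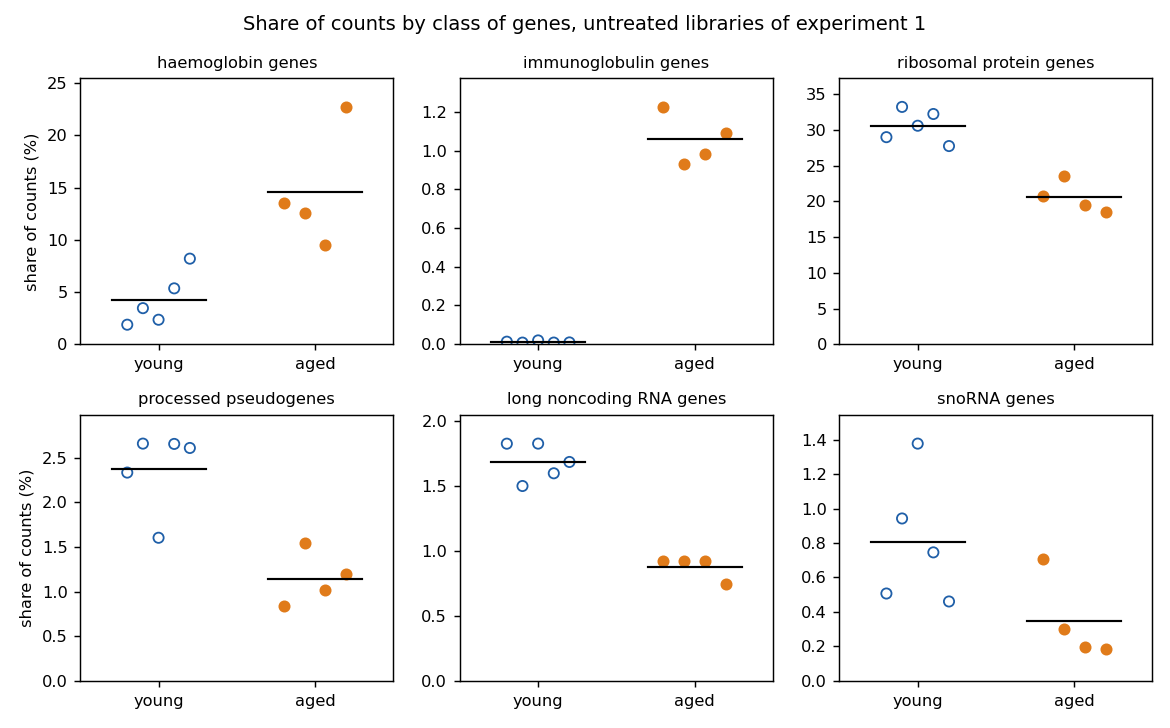
Share of each library's counts (percent, vertical axis from 0) taken by 6 classes of genes in the 5 young (open blue) and 4 aged (filled orange) untreated libraries of experiment 1, with the group means as bars. Haemoglobin and immunoglobulin genes took more, and ribosomal protein genes less, in every aged library than in any young one.

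Genes of dividing cells fell in aged ovaries. Of 32 genes of mitosis and DNA replication tested, 20 fell, 1, Cdt1, rose (0.79 ± 0.26) and 11 did not pass, with a median of -1.21. Cenpe, a kinesin of the kinetochore, stood at 99.6, 97.4, 128, 51.9 and 112 CPM in young and 10.6, 4.89, 6.599 and 7.87 CPM in aged ovaries. Mki67, which marks dividing cells, stood at 59.5, 59.3, 87.9, 32.7 and 58.6 CPM in young and 31.03, 21.4, 20.8 and 28.4 CPM in aged ovaries, a fall of 1.23 (adjusted p = 0.0022). Both were separated between the groups. Cenpf fell by 2.87, the checkpoint kinase gene Bub1b by 2.05 and the replicative helicase subunit Mcm7 by 1.55. In experiment 2, 5 of 32 fell, against 4.59% of all genes tested there. Cdt1 lost its call without young replicate 1 or 5, or aged replicate 3 or 4 (adjusted p = 0.052 to 0.15).

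Ribosomal protein genes made up the 12 largest falls in mean CPM among genes whose groups did not overlap. They took 28.999%, 33.2%, 30.6%, 32.2% and 27.8% of counts in young and 20.8%, 23.6%, 19.5% and 18.5% in aged ovaries (exact permutation p = 0.0079, two-sided). Every aged library lay below every young one. Without haemoglobin genes in the total, the shares were 31.9 ± 2.22% in young and 24.1 ± 2.23% in aged ovaries. Of 77 genes tested, 43 fell and 0 rose, with a median of -0.56, and 2 rose without young replicate 3. Rpl23a, of the large subunit, stood at 3427, 5984, 6824, 4187 and 3825 CPM in young and 1416, 1510.2, 1225 and 1189 CPM in aged ovaries, and Rpl37 at 8560.2, 13852, 10206, 11567 and 9190.5 CPM in young and 4746, 6089, 4439 and 5199.9 CPM in aged ovaries. Rps14, of the small subunit, stood at 9171, 13757, 14062, 10848 and 9465 CPM in young and 8722, 6227, 6039 and 5013 CPM in aged ovaries, its aged replicate 1 close under the lowest young library. Processed pseudogenes, many of them copies of such genes that can share their reads, had 136 falls and 3 rises among 319 tested, and made up 1.15 ± 0.302% of all counts in the aged group and 2.37 ± 0.45% in the young group. In experiment 2, 2 of 77 ribosomal protein genes fell and 0 rose, with a median of -0.11. Of all genes tested there, 4.59% fell.

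Small noncoding RNAs, which a polyA library captures poorly, were lower as well. Of 94 small nucleolar RNA genes tested 42 fell and 1 rose, and of 41 small nuclear RNA genes 17 fell and 1 rose. Rn7sk, the RNA that holds back transcription elongation, stood at 431, 543, 689, 336 and 314 CPM in young and 49.8, 37.8, 31.8 and 57.6 CPM in aged ovaries, a change of -3.39 ± 0.30 (adjusted p = 2.4e-06). The share of counts from small nucleolar RNA genes was 0.348 ± 0.245% in aged and 0.807 ± 0.373% in young ovaries, with aged replicate 1 inside the young range (exact permutation p = 0.071, two-sided). Among protein-coding genes the split was the other way, with 2834 rises and 2212 falls among 14131 tested.

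Protein turnover and energy genes went different ways by list. Calls made up 38.7% of the proteasome list and 39% of the respiratory chain list, near the 34.9% of all genes tested. In the glycolysis list they made up 57.1%. Of constitutive proteasome subunits, 11 of 31 fell and 1, Psmd3, rose (0.94 ± 0.23). Psmb3, of the core ring, stood at 402, 419, 443, 362 and 294 CPM in young and 99.8, 70.4, 78.3 and 110.1 CPM in aged ovaries, without overlap. Psma4 fell by 1.68, Psma7 by 1.07 and Psmd11 by 0.98. Of respiratory chain and ATP synthase genes 12 fell and 4 rose among 41: Atp5c1, of the ATP synthase stalk, stood at 359, 538, 444, 518 and 480.4 CPM in young and 114, 156, 158 and 149 CPM in aged ovaries, while Uqcrc1, a core subunit of complex III, stood at 20.1, 20.3, 22.5, 21.8 and 15.5 CPM in young and 55.4, 40.9, 86.6 and 73.8 CPM in aged ovaries. Their changes were -1.70 ± 0.19 and 1.68 ± 0.21, in opposite directions. Glycolysis had 11 rises and 1 fall, that of Gapdh (-0.65 ± 0.21), among 21 tested, with a median of 0.68. Pkm, pyruvate kinase, stood at 179.7, 158, 199, 151 and 129 CPM in young and 509, 307, 538 and 348 CPM in aged ovaries, and rose by 1.38 ± 0.20. The phosphofructokinases Pfkp and Pfkl rose by 1.52 ± 0.22 and 1.38 ± 0.21 and the glucose transporter Slc2a1 by 1.78 ± 0.27. Gapdh lost its call without young replicate 2 or 5, or aged replicate 1 (adjusted p = 0.053 to 0.076). For constitutive proteasome subunits the number of rises was 2 without young replicate 2, and 3 without young replicate 3.

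Stress proteins were split. Calls made up 63.2% of the endoplasmic reticulum list, 50% of the heat shock list and 47.4% of the ATF4 list. Over all genes tested they made up 34.9%. Among endoplasmic reticulum chaperones 7 fell and 5 rose of 19 tested. Hsp90b1, the resident HSP90, stood at 352, 416, 713, 341 and 404 CPM in young and 69.6, 80.2, 84.1 and 52.8 CPM in aged ovaries, and the disulphide isomerase Pdia4 at 154, 165, 337, 122 and 85.7 CPM in young and 14.9, 11.9, 14.3 and 28.8 CPM in aged ovaries. Hsp90b1 fell by 2.63 and Pdia4 fell by 3.30, whereas Edem1, which sends misfolded glycoproteins to degradation, rose by 1.64 ± 0.22. Of other heat shock proteins, a list that also holds the mitochondrial Hspe1, 6 rose and 3 fell among 18. The small chaperone Hspb8 stood at 62.3, 54.4, 94.2, 66.7 and 47.3 CPM in young and 269.8, 149, 257 and 263 CPM in aged ovaries, a change of 1.85 ± 0.22 (adjusted p = 1.8e-05), and Hspe1, the co-chaperonin of mitochondria, fell by 1.08. Atf4, the transcription factor of the integrated stress response, stood at 78.4, 74.3, 130.3, 70.8 and 72.95 CPM in young and 239, 129, 245 and 228 CPM in aged ovaries and rose by 1.30 ± 0.22. Its list had 7 rises and 2 falls among 19 tested. Rises in the list of ATF4 stress response numbered 4 without young replicate 1, or aged replicate 3. Counts of falls among ATF4 stress response were 1 without young replicate 2 or 3, or aged replicate 2 or 4.

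Txnrd1, the gene in the title of the study (ENSMUSG00000020250, chromosome 10, 82833951 to 82897712), encodes the cytosolic selenoprotein that reduces thioredoxin with NADPH. It stood at 18.2, 14.2, 23.8, 23.3 and 21.95 CPM in young and 19.4, 43.8, 44.8 and 34.04 CPM in aged ovaries. Aged replicate 1 lay within the young range, and the other 3 aged libraries above it. Its value of 0.81 ± 0.31 did not pass (adjusted p = 0.052), and was 1.01 without aged replicate 1 (adjusted p = 0.017). In experiment 2 it was 0.20 ± 0.47 (adjusted p = 0.86). Of the thioredoxin system, 5 of 23 tested rose and 4 fell. This share of calls, 39.1%, was near the 34.9% of all genes tested. Srxn1, which revives oxidised peroxiredoxins, stood at 10.2, 10.3, 10.2, 11.5 and 6.97 CPM in young and 55.8, 64.8, 103 and 88.3 CPM in aged ovaries, without overlap. Prdx4, the peroxiredoxin of the endoplasmic reticulum, fell by 1.71 and Prdx5, of mitochondria, rose by 1.14 ± 0.19. Msrb1, a selenoprotein that repairs oxidised methionine, rose by 1.43 ± 0.19. Txnrd1 passed without TRi-1 replicate 1 or 2 (adjusted p = 0.04 to 0.042).

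Of other selenoproteins 6 rose and 4 fell among 23, 43.5% called against 34.9% of all genes tested. Gpx3, the secreted glutathione peroxidase, stood at 391, 288, 322, 148 and 194 CPM in young and 1276, 464, 686 and 733 CPM in aged ovaries, and Selenop, which carries selenium in plasma, at 302, 363, 231, 325 and 397 CPM in young and 509, 999, 929.7 and 758 CPM in aged ovaries. Selenon, of the endoplasmic reticulum, rose by 1.65 ± 0.28 and Selenow by 1.16 ± 0.22, while the nuclear Selenoh fell by 1.15. NRF2 target genes had 11 rises and 2 falls among 27 tested, 48.1% called, and a median of 0.53. Hmox1, which breaks down haem, stood at 10.7, 5.57, 12.3, 3.73 and 6.70 CPM in young and 96.1, 64.95, 65.2 and 96.3 CPM in aged ovaries, a change of 3.38 ± 0.38 (adjusted p = 1.3e-05). The ferritin chains Ftl1 and Fth1, which store iron, rose by 2.03 ± 0.18 and 1.64 ± 0.18, and Slc11a1, an iron exporter of the phagosome, by 4.42 ± 0.51. Aged replicate 3 was the highest for the last, at 14.5, 18.3, 51.4 and 21.7 CPM against 0.173 to 1.97 CPM in young ovaries. Slc11a1 changed by 3.82 without aged replicate 3. The list of NRF2 targets had a number of rises of 7 without young replicate 5, or aged replicate 3.

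Haemoglobin genes took 1.87%, 3.45%, 2.34%, 5.35% and 8.19% of counts in young and 13.5%, 12.6%, 9.52% and 22.7% in aged ovaries (exact permutation p = 0.0079, two-sided). The lowest aged library was above the highest young one. Alas2, which makes haem in red cell precursors, stood at 61.8, 126, 83.6, 197 and 245 CPM in young and 378, 424, 338 and 968 CPM in aged ovaries and rose by 1.88 ± 0.42, and the band 3 transporter Slc4a1 rose by 2.55 ± 0.59. Near-identical haemoglobin genes can share reads. The part of blood in the rises of white cell genes was not tested. After haemoglobin genes were removed 2907 genes were higher and 2681 lower. This removal changes the scaling and leaves the counts of white cell genes as they were, so it cannot show that part. Slc4a1 changed by 1.87 without aged replicate 4.

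Matrix genes did not move as a block. Of 19 collagens tested, 5 rose and 4 fell, 47.4% called against 34.9% of all genes tested. Col1a2, of type I collagen, stood at 303, 270.3, 498, 436 and 382 CPM in young and 35.6, 123, 174 and 148 CPM in aged ovaries, and Col3a1, of type III, at 456, 490.02, 718, 723 and 658 CPM in young and 244, 197, 452 and 465 CPM in aged ovaries. Col1a2 fell by 1.65 and Col3a1 fell by 0.84, the latter with overlap. Col4a2, of vessel basement membranes, stood at 44.7, 51.6, 75.7, 41.6 and 56.3 CPM in young and 141, 99.4, 154 and 184 CPM in aged ovaries, and rose by 1.42 ± 0.21. Among matrix glycoproteins 9 of 26 rose and 2 fell. Fn1, fibronectin, stood at 43.2, 66.1, 84.5, 86.97 and 68.6 CPM in young and 329.7, 302, 1462 and 765 CPM in aged ovaries, highest in aged replicate 3, and the proteoglycan Bgn at 199, 245, 344, 165 and 206 CPM in young and 1012, 428, 758 and 712 CPM in aged ovaries. Of proteases and inhibitors 12 of 21 rose and 0 fell. Mmp12, the elastase of macrophages, rose by 3.89 ± 0.56 and Mmp19 by 2.02 ± 0.31. Plod2, which hydroxylates collagen lysines for cross-linking, stood at 167, 213, 181, 112 and 183 CPM in young and 61.6, 44.996, 55.6 and 72.3 CPM in aged ovaries, and fell by 1.55 (adjusted p = 9.7e-05). In experiment 2, 0 of 20 collagens rose and 2 fell, against 5.86% and 4.59% of all genes tested there. Col3a1 lost its call without young replicate 3, 4 or 5, or aged replicate 1 or 2 (adjusted p = 0.061 to 0.098). For collagens the number of rises was 3 without young replicate 1, or aged replicate 4. Falls in the list of collagens numbered 2 without young replicate 5, or aged replicate 1 or 2.

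Other stromal lists were mixed. Calls made up 45% of the TGF-beta and BMP list and 38.9% of the blood vessel list, against 34.9% of all genes tested. Bmp4, a ligand that theca cells make for follicles, stood at 50.9, 36.9, 49.4, 60.3 and 65.5 CPM in young and 248, 171, 129 and 317 CPM in aged ovaries, without overlap, and rose by 2.04 ± 0.27 (adjusted p = 4.6e-05). Of its list of TGF-beta and BMP ligands and antagonists, 3 rose and 6 fell among 20, the falls including the oocyte ligands Gdf9 and Bmp15. Mgp, which holds back calcification, stood at 804, 1122, 1057, 993 and 889 CPM in young and 1957, 2607, 2217 and 3021 CPM in aged ovaries and rose by 1.33 ± 0.17. Fibroblast genes had 9 rises and 2 falls among 21, with Ly6a rising by 2.57 ± 0.37 and Cxcl12 by 1.22 ± 0.18. Of 18 blood vessel endothelial genes tested, 7 rose and 0 fell. Plvap, of the diaphragms of permeable vessels, stood at 9.21, 9.19, 7.26, 4.26 and 16.04 CPM in young and 30.6, 32.9, 32.5 and 50.1 CPM in aged ovaries, and Vwf rose by 1.88 ± 0.36. Lymphatic endothelial genes had 6 rises among 10. Vegfd, a growth factor for lymphatic vessels, rose by 1.502 ± 0.27 and its receptor Flt4 by 1.34 ± 0.30. Counts of falls among TGF-beta and BMP ligands and antagonists were 3 without young replicate 2 or 3, or aged replicate 2. The list of blood vessel endothelial genes had a number of rises of 4 without young replicate 4.

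Regulatory programmes gave scattered calls. Calls made up 42.9% of immediate early genes, 29.4% of clock genes and 42.9% of glucocorticoid-induced genes. They made up 36.4% of NAD metabolism genes and 20% of cholesterol genes, against 34.9% of all genes tested. Of immediate early genes 8 of 21 rose and 1, Klf6, fell (-0.62 ± 0.17). Junb, a part of the AP-1 factor, stood at 8.80, 8.07, 11.6, 8.95 and 11.04 CPM in young and 13.97, 53.8, 86.9 and 47.4 CPM in aged ovaries, with aged replicate 1 nearest the young range, and Zfp36, which destabilises inflammatory mRNA, at 7.37, 10.02, 11.7, 5.01 and 9.07 CPM in young and 31.5, 24.6, 37.9 and 42.4 CPM in aged ovaries. Their changes were 2.39 ± 0.38 and 1.99 ± 0.28. Of clock genes 5 of 17 rose, including Bhlhe41 (2.08 ± 0.36) and Nr1d2 (1.04 ± 0.21), and 3 rose without young replicate 3 and aged replicate 1; the hour of collection is not in the labels. Of glucocorticoid-induced genes 4 rose and 2 fell among 14. Zbtb16, which responds to progestins and glucocorticoids, stood at 32.4, 37.4, 46.3, 34.3 and 37.3 CPM in young and 9.09, 7.44, 10.2 and 10.98 CPM in aged ovaries, and fell by 1.99 (adjusted p = 5.2e-05), whereas the metallothioneins Mt1 and Mt2 rose by 1.05 ± 0.18 and 0.94 ± 0.20. Among NAD metabolism genes 7 of 22 rose. Bst1, an NAD-consuming ectoenzyme of lymphoid stroma and myeloid cells, stood at 0.614, 0.557, 2.59, 0.426 and 0.131 CPM in young and 9.53, 7.62, 24.3 and 12.2 CPM in aged ovaries, without overlap. Cholesterol synthesis and uptake gave 3 rises and 2 falls among 25 tested. For cholesterol synthesis and uptake the number of rises was 1 without aged replicate 3. Falls in the list of cholesterol synthesis and uptake numbered 0 without aged replicate 4, and 1 without young replicate 1, 2 or 5, or aged replicate 2, and 4 without young replicate 4, and 6 without aged replicate 3. Counts of falls among immediate early genes were 2 without aged replicate 3, or TRi-1 replicate 3.

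Transcripts of neighbouring tissues were looked for in each library. Hepatocyte markers summed to 294, 390.2, 429, 547 and 779.6 CPM in young and 225, 425, 3639 and 336 CPM in aged ovaries. Aged replicate 3 held the most, with Alb, serum albumin, at 54.4, 37.3, 18.1, 89.6 and 176 CPM in young and 0.333, 85.9, 852 and 23.4 CPM in aged ovaries, and Arg1, an arginase of liver and of macrophages, at 9.52, 12.8, 13.8, 7.46 and 7.89 CPM in young and 22.8, 20.5, 699 and 58.8 CPM in aged ovaries. Adipocyte markers summed to 1270.5, 4687, 3502, 3043 and 3499.6 CPM in young and 2632, 2465, 8909.9 and 3759.9 CPM in aged ovaries, again with the most in aged replicate 3. Of 20 hepatocyte markers tested 1 rose and 0 fell, with a median of 1.17, and without that library 1 rose and 1 fell, with a median of -1.30. Of 16 adipocyte markers 4 rose, with a median of 0.62, and without that library 1 rose, with a median of -0.05. The medians of both lists thus changed sign. Oviduct and uterine epithelial markers summed from 1423 to 3520.1 CPM in young and from 1481 to 2792 CPM in aged ovaries, so the groups overlapped, and 2 of 17 rose. Calls made up 5% of the hepatocyte, 25% of the adipocyte and 11.8% of the oviduct list, against 34.9% of all genes tested. The part of these tissues in the values of aged replicate 3 was not tested. Without that library 2396 genes were higher and 2501 lower over the whole table. The list of adipocyte markers had a number of rises of 1 without young replicate 1 or 4, or aged replicate 3, and 2 without young replicate 2 or 3, or TRi-1 replicate 2 or 3. For oviduct and uterine epithelium the number of rises was 0 without young replicate 2 or 5, or TRi-1 replicate 1 or 2, and 1 without aged replicate 1 or 3, or TRi-1 replicate 3 or 4. Rises in the list of hepatocyte markers numbered 2 without young replicate 3, or aged replicate 2.

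**Figure D4:**
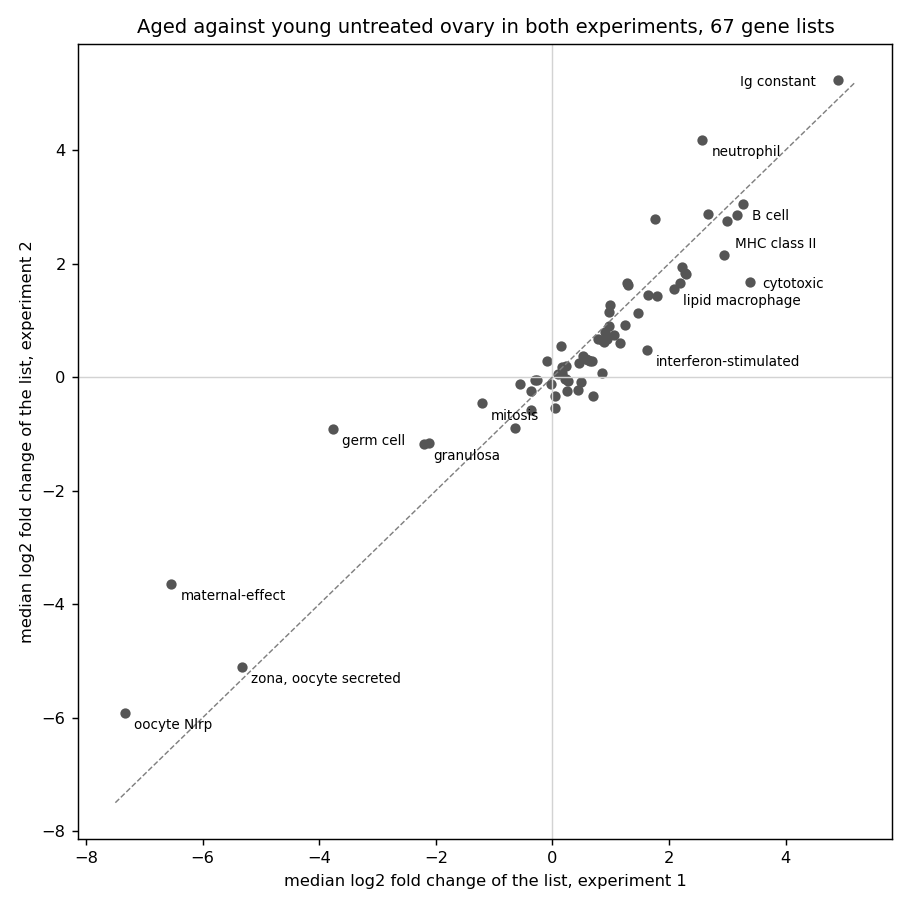
Median log2 fold change, aged minus young, of the tested members of 67 gene lists in experiment 1 (horizontal axis) and in experiment 2 (vertical axis), from separate fits without shared libraries. Each point is a list, only some of which are named, and the dashed line marks equal medians. Oocyte lists lie at the lower left and lymphocyte and neutrophil lists at the upper right.

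Experiment 2 made the same comparison in separate libraries, and its age effect was fitted apart. It called 956 genes higher (5.86%) and 749 lower (4.59%) among 16309 tested. Of the 15512 genes tested in both experiments, 1421 were called in both, 1420 of them in the same direction and 1 in opposite ones. These 1420 genes are 26.2% of the calls of experiment 1 and 85.2% of those of experiment 2. Of the genes called in experiment 1, 89.6% had the same sign in experiment 2, against 64.6% of those not called. Genes higher in experiment 1 had a median of 1.24 there and 0.57 in experiment 2, and genes lower a median of -1.29 and -0.69, though members picked by their call in experiment 1 lean to larger values there.

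The difference between the age effects was tested gene by gene in a fit of all 27 libraries. edgeR called 0 of 17484 genes (0%; lowest adjusted p = 0.070, with 2067 at an unadjusted p under 0.05), and DESeq2 called 179. The smallest p were those of Ctxn1, Fam3a, Mcm10 and Eif5b. Eif5b, a factor that joins ribosomal subunits, stood at 344, 339.9, 408, 339 and 322 CPM in young and 159, 146, 163 and 148 CPM in aged ovaries in experiment 1, a change of -1.19 ± 0.15, against -0.02 ± 0.19 in experiment 2. Mcm10, a replication factor, changed by -4.0001 ± 0.58 and -0.19 ± 0.49. Ctxn1 changed by 1.86 ± 0.24 and -0.19 ± 0.26, and Fam3a by 1.16 ± 0.19 and -0.18 ± 0.20. For these 4 genes the age effect passed in experiment 1 and not in experiment 2, and the difference itself did not pass with edgeR.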

How the data were processed

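Per the labels' protocols, ovary RNA was purified on RNeasy columns, treated with DNase I and turned into libraries with Lexogen QuantSeq reagents. Kits of this name are generally used to read the 3' end of polyadenylated RNA. The authors deposited 1 table of whole-number counts per Ensembl gene for all 27 libraries. DESeq2, RSEM 1.2.3 and the build mm10 appear in the submitters' processing notes, with no role given. The annotation, the strand setting and any filter are not given in the sources used here, and the deposited counts may be rounded estimates. The table held 0 columns of other samples. Of 51789 gene IDs, 51596 were named from GENCODE M21 (GRCm38), whose positions are given, and promoter windows came from RefSeq (GRCm38.p6).

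The 13 libraries of experiment 1 were fitted together with edgeR 4.0.16 (R 4.3.3), with TMM scaling, its default filter on low counts and the quasi-likelihood test, and p-values were adjusted by Benjamini-Hochberg over all genes tested with a threshold of 0.05. Shares of counts were compared with the two-sided exact permutation test. The fits were tested on simulated data, where they recovered only part of the changes put in, least of all small ones. Recovery was lower for the difference between experiments, so genes that did not pass may still differ. The labels do not say that replicate numbers pair the libraries, and the main fit did not pair them. Deviations from group means of the 4 same-numbered young and aged pairs correlated at -0.080 to 0.078. For young replicate 3 and aged replicate 1 the correlation was 0.32. A shared litter, day or batch was not tested. All 16 pairs within groups differed by more than counting noise, with a chi-square per gene of 20.5 or more. Confidence intervals cover counting error only.

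The lists and members were chosen with earlier results of these data known. Among genes called with a mean of at least 5 CPM, groups that do not overlap and a usual symbol, the 12 largest rises and falls in CPM and the 12 smallest p in each direction qualified for naming. Each list gave its 4 members with the smallest p, or its 2 members with the highest level where fewer than 2 were called. Txnrd1, Cdkn1a, Cdkn2a, Il1b, Il6, Ccl2 and Cxcl10, and the 4 genes with the smallest p of the difference between experiments, were named in any case. Chosen after their values were seen were Ackr3, Amh, Cdt1, Chst4, Col3a1, Cxcl2, Cxcl9, Cyp11a1, Cyp19a1, Derl3, Figla, Fkbp11, Fshr, Gapdh, Glycam1, Gpx3, Ifi205, Ifng, Igha, Jam2, Klf6, Lef1, Ly6g, Mki67, Por, Psmd3, Rec8, Rnaseh2b, Star, Tbk1, Tcf4, Trem2 and Trim28. Alternatives were RLE scaling, DESeq2 1.42.0, limma 3.58.1 with quality weights, other filters, other sets of libraries, the replicate block and each library left out. Leaving out young replicate 3 with aged replicate 1, and lists and shares with libraries left out, were added after seeing the data. Some genes that qualified for naming are not reported here.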

Additional observations from a re-analysis of the deposited data

Results flagged for a closer look

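In some groups 1 library lay apart from the rest, by the gap to its nearest neighbour over the range of the group. Among 228 groups of values examined this held for 26, where chance gives about 1 in 20. Aged replicate 4 stood apart for Alas2 at 968 CPM, Nlrp14 at 0.857 CPM, Plvap at 50.1 CPM and Zp3 at 1.64 CPM. Aged replicate 4 held the lowest share of counts from long noncoding RNA genes, 0.747%. Aged replicate 3 stood apart for Alb at 852 CPM, Arg1 at 699 CPM, Bmp15 at 0.0846 CPM, Bmpr1b at 4.91 CPM, Cd8a at 5.75 CPM, Cxcl2 at 14.7 CPM, Elobl at 0.677 CPM, Gdf15 at 22.6 CPM and Nr5a2 at 13.03 CPM. Young replicate 3 stood apart for Atf4 at 130.3 CPM, Bst1 at 2.59 CPM, C1qa at 136 CPM, Eif5b at 408 CPM and Hsp90b1 at 713 CPM. Aged replicate 2 stood apart for Atf4 at 129 CPM and Hspb8 at 149 CPM. Young replicate 5 stood apart for Cxcl2 at 0.131 CPM and Srxn1 at 6.97 CPM. Young replicate 1 stood apart for Gzmk at 0.102 CPM. Young replicate 4 stood apart for Ifng at 0.107 CPM and Zbp1 at 6.18 CPM. For Bmp15, Cxcl2 in young ovaries, Gzmk and Ifng a single count sets the value.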

How the results depend on the processing

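The counts of genes higher and lower in aged ovaries (2958 and 2632) stayed within 1.5 times under every alternative run, from 2129 to 3053 higher and from 1998 to 3349 lower, and from 2396 to 2938 and from 2258 to 2806 with 1 library left out. The replicate block gave 2129 higher and 1998 lower, and 4057 of the 5590 genes called kept their call and direction in it. Of 209 genes named and tested, 20 lost their call under at least 1 alternative: 13 with all 27 libraries, 8 with the replicate block, 8 without the libraries apart on the second component, 3 with limma-voom, 3 with no filter, and up to 9 with 1 library left out. None of the called genes among them changed direction. Another 3, Txnrd1, Igha and Cyp19a1, did not pass in the main fit and passed under at least 1 alternative. Gains numbered 2 with only the 9 libraries compared, and 1 each with limma-voom, no filter and without the libraries apart on the second component. For the lists only RLE scaling, a filter at 5 CPM and libraries left out were examined. Medians of 34 of 68 lists moved by more than a set spread under at least 1 of these. That spread was the pooled standard deviation between libraries of the log2 summed CPM of the list, and not a spread of the median itself. The difference between experiments, with 0 genes called, gave 179 with DESeq2, 6 among genes of at least 5 CPM, 2 with the 18 untreated libraries, 0 with the replicate block, and 0 to 19 with 1 library left out, the most without young replicate 4 of experiment 2; the cause was not tested. The aged minus young share of small nucleolar RNA counts ranged from -0.578 to -0.316 percentage points with 1 library left out, and passed without aged replicate 1 (exact permutation p = 0.036). Depth limits what can be said of genes at a few counts: Amh, Fshr, Figla and Il6 were too scarce to test. Differences in the age, strain or cycle of the mice cannot be told apart from the groups where the labels do not give them.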
